A study of Mus musculus with 10 samples.

Results

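Immunoglobulin genes were followed in RNA sequencing of dendritic cell precursors from mouse spleen. The genes were chosen by name and by level: rows of the deposited table named as a variable (V), diversity (D), joining (J) or constant gene of the heavy, kappa or lambda chain, with a log2 RPKM above 0 in at least 1 of 10 libraries. RPKM scales a gene's reads to its length and to the size of the library, so it is a level per length. Of 52550 genes, 395 carry such a name, and 114 met the level. These were 38 heavy V, 33 kappa V and 3 lambda V segments, 18 heavy D segments, 4 heavy, 5 kappa and 3 lambda J segments, and 6 heavy, 1 kappa and 3 lambda constant genes. The level itself chose these genes, so that they are above 0 is not a result, and the values below are in part a description of that choice. Just outside it lay Ighv10-3, with a highest value of -0.03 from 3 reads. Just inside it lay Ighd1-1, at 0.10 with no read, and Ighv8-12, at 0.21 with 4 reads. A gene without reads has a low value set by its length, and for D segments of a few bases that value is above 0. For this reason 10 of the 114, all D segments, met the level with no read in any library (Ighd1-1, Ighd2-3, Ighd2-4, Ighd2-5, Ighd2-7, Ighd2-8, Ighd3-1, Ighd5-1, Ighd5-5 and Ighd5-6), and 104 had at least 1 read. Of the names below the level, 29 also had at least 1 read.

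The cells were precursors of conventional dendritic cells, which capture antigen and present it to T cells. The labels call them pre-cDC1 (titled DN) and pre-cDC2 (titled Ly6C), each committed to the lineage it is named for. All mice were C57BL/6. The wild-type (WT) groups held 3 libraries of pre-cDC1 and 2 of pre-cDC2, and the CD11c-cre Adam10fl/fl groups (KO below) held 3 of pre-cDC1 and 2 of pre-cDC2. In KO mice Cre is driven by the CD11c promoter, which is active in dendritic cells but also in other CD11c-expressing cells, and removes a loxP-flanked part of Adam10, a membrane protease. Nothing in the labels says that WT mice carried the Cre or the floxed allele, which markers were used for isolation, how old the mice were, or whether replicates were separate mice, so the p-values below measure the spread between these libraries, which may be technical.

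An antibody is made of heavy and light chains. In developing B cells RAG recombinase joins 1 of many V segments to a D segment (heavy chain only) and a J segment, so that a clone carries its own V choice, and the joined exon is spliced to a constant exon. The first constant genes used are Ighm (mu) and Ighd (delta), and after class switching Ighg1, Ighg2b, Ighg2c (gamma) or Igha (alpha) is used. Plasma cells fill most of their messenger RNA with rearranged, often switched chains. The heavy chain locus is also transcribed without a V segment: sterile transcripts start near the J segments and splice to Ighm. D-to-J joins have been described in plasmacytoid dendritic cells, which make no antibody. In bulk RNA, fewer cells of a type and less RNA per cell cannot be told apart.

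Reads recovered from the deposited values came to between 7862449 and 13177686 per library, and counting error only is covered by the intervals given below, since the reads have no molecular identifiers. Adam10 had 28, 48 and 10 reads in WT pre-cDC1 and 9, 3 and 13 in KO pre-cDC1. The KO pre-cDC2 libraries, with 909 and 742 reads, lay between those of WT, with 228 and 1261. The deleted part of the gene is not given in the sources used here, and a value for the whole gene does not check the deletion. A list of 15 precursor and conventional dendritic cell genes, among them Flt3 and Clec9a, had reads for every gene in every library. Their levels differed: the mean was 5.39 to 6.08 log2 RPKM in pre-cDC1. In pre-cDC2 it was 5.06 in WT replicate 2 and 4.16 to 4.44 in the other libraries. Of the list, 8 genes were called lower and 1 higher in pre-cDC2 in WT, and 8 lower and 4 higher in KO. Among pre-cDC2, WT replicate 2 stood apart: the mean of 14 T cell genes was 2.12 log2 RPKM there and 5.95 to 6.50 in the other 3 libraries, and the mean of 9 NK cell genes was 2.07 there and 5.96 to 6.23 in the others. The summed RPKM of the T cell genes was 6.90 to 15.5 in WT and 3.17 to 5.06 in KO pre-cDC1, and that of the NK cell genes 46.8 to 58.5 and 37.2 to 42.3. In pre-cDC2 the T cell sum was 89.6 in WT replicate 2 and 1225 to 1832 in the other 3 libraries, and the NK cell sum 73.2 and 909.5 to 1111. All genes of both lists had a read in each pre-cDC2 library, while up to 4 of each list were at 0 reads in a pre-cDC1 library. The 4 pre-cDC2 libraries thus do not match in markers of other cells, and results that rest on 1 of them are given with and without it.

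Immunoglobulin reads made up 0.106%, 0.124% and 0.129% of the library in WT pre-cDC1 replicates 1, 2 and 3. They made up 0.0684%, 0.0631% and 0.0678% in KO pre-cDC1. In pre-cDC2, WT replicate 2 had a share of 0.22% and WT replicate 3 of 0.445%, with the KO libraries between them at 0.342% and 0.353%. Most of these reads in pre-cDC1 belonged to Ighm. Without Ighm and Ighd, 1699, 4842 and 5117 reads were left in WT pre-cDC1 and 81, 102 and 427 in KO pre-cDC1. The WT pre-cDC2 libraries had 2955 and 34121 such reads, and the KO pre-cDC2 libraries 15411 and 14085. The KO pre-cDC1 libraries are the 3 lowest of the 10 on this sum, and WT pre-cDC2 replicate 3 is the highest. The number of members with a read ran in the same order of groups in pre-cDC1, with 37, 39 and 34 in WT and 20, 15 and 18 in KO. WT pre-cDC2 had 35 and 51 such members, KO pre-cDC2 58 and 52. A read was found in all 10 libraries for 8 members, and in a single library for 27.

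**Figure D1:**
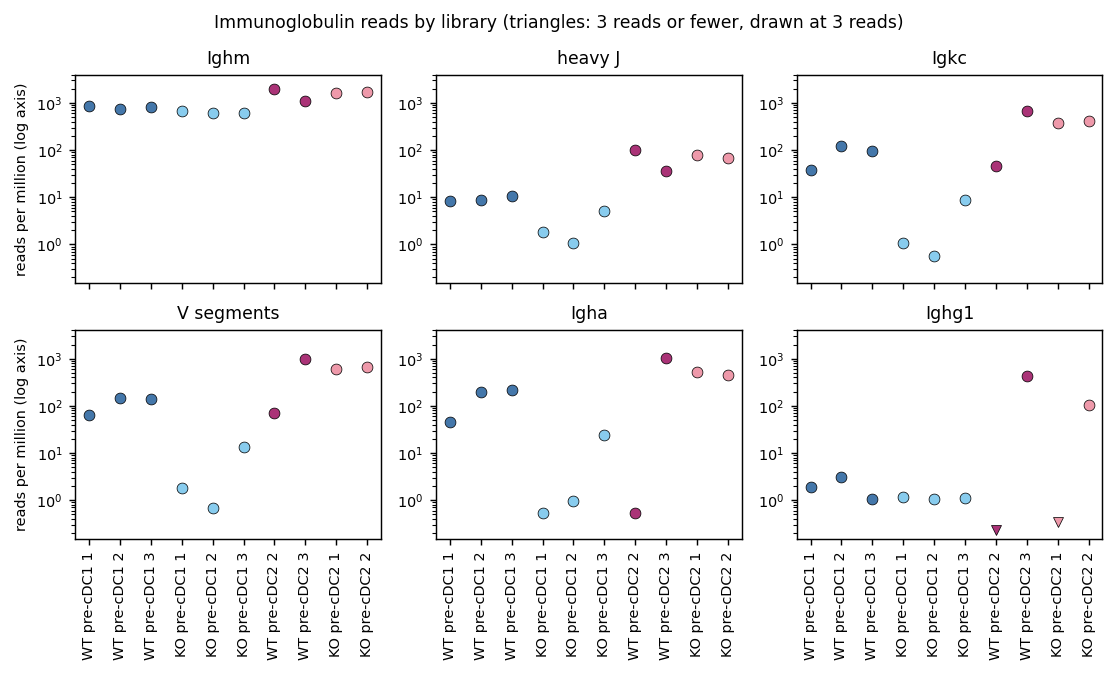
Reads scaled to library size (RPM, log axis) of Ighm, the sum of the 4 heavy J segments, Igkc, the sum of all member V segments, Igha and Ighg1 in each of the 10 libraries; each point is 1 library, coloured by group, and triangles mark 3 reads or fewer. Ighm lies within a narrow band, while Igkc, the V segments and Igha are lowest in KO pre-cDC1 replicates 1 and 2 and, for Igha, in WT pre-cDC2 replicate 2.

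Ighm and Ighd, the unswitched heavy constant genes, varied least among the members with reads. Ighd ranged over only 0.68 log2 RPKM across the 10 libraries, from 2.92 to 3.60. Ighm (ENSMUSG00000076617, GRCm38 chromosome 12, 113418558 to 113422730) had 8515, 7205 and 8877 reads in WT pre-cDC1 and 7518, 6287 and 4803 in KO pre-cDC1. The WT pre-cDC2 libraries had 25730 and 11486 reads, and KO pre-cDC2 had 14268 and 13521. Every pre-cDC2 library was above every pre-cDC1 library on the log2 RPKM scale, where the means were 8.86 ± 0.12 (SD, n = 3) in WT and 8.47 ± 0.12 (SD, n = 3) in KO pre-cDC1, and 9.53 ± 0.61 (SD, n = 2) and 9.63 ± 0.07 (SD, n = 2) in WT and KO pre-cDC2. The highest Ighm level was in WT pre-cDC2 replicate 2, the library with the lowest light chain level among pre-cDC2.

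Igkc, the kappa light chain constant gene (ENSMUSG00000076609, GRCm38 chromosome 6, 70726435 to 70726966), varied far more. It had 371, 1208 and 1032 reads in WT pre-cDC1 and 12, 6 and 70 in KO pre-cDC1. WT pre-cDC2 replicate 2 had 619 reads, replicate 3 had 6848, and the KO pre-cDC2 libraries had 3269 and 3189. The WT and KO pre-cDC1 libraries do not overlap, and WT pre-cDC2 replicate 2 lies among WT pre-cDC1. Reads of Ighm per read of Igkc ran from 1.68 in WT pre-cDC2 replicate 3 to 1048 in KO pre-cDC1 replicate 2. The heavy and light constant genes were therefore not present in 1 fixed proportion across libraries.

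Igha, the constant gene of IgA, had 444, 1958 and 2344 reads in WT pre-cDC1 and 6, 10 and 190 in KO pre-cDC1. It had 7 reads in WT pre-cDC2 replicate 2 against 10861 in replicate 3, and 4545 and 3603 in KO pre-cDC2. Within WT pre-cDC2 the gene thus spanned almost the whole range of the series, and its share of heavy constant reads was 0.0269% in replicate 2 and 38.4% in replicate 3. Among the gamma genes, Ighg1 and Ighg2c were high in a few libraries only. Ighg1 had 4490 reads in WT pre-cDC2 replicate 3 and 810 in KO pre-cDC2 replicate 2, against 0 and 2 in the other two pre-cDC2 libraries and 9 to 30 in pre-cDC1. Ighg2c had 1162 reads in WT pre-cDC2 replicate 3 and 1286 in KO pre-cDC2 replicate 1, 20 in KO pre-cDC2 replicate 2, and at most 2 in each of the other libraries. Ighg2b stayed at 57 reads or fewer in every library. The 2 KO pre-cDC2 libraries, alike in Igkc and Igha, thus differed in which gamma gene they held.

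The lambda constant genes were likewise uneven. Iglc1 had 350 reads in KO pre-cDC2 replicate 1, 137 in WT pre-cDC1 replicate 1 and 50 in WT pre-cDC2 replicate 3, and at most 8 elsewhere. Iglc2 had 490 reads in KO pre-cDC2 replicate 2 and at most 22 elsewhere. Iglc3 had between 2 and 18 reads in each library of the other groups. None of the 3 lambda constant genes had a read in any KO pre-cDC1 library, which at 3 reads allows up to 0.264, 0.287 and 0.379 RPM (reads scaled to library size) of each gene there. Of all light chain constant reads, kappa took 69.7% in WT pre-cDC1 replicate 1, 89.7% and 86.2% in KO pre-cDC2, and at least 96.6% in each of the other libraries. An annotated gene of low level, Gm30211 (7 reads in all), overlaps the kappa J segments and Igkc on the same strand, and 2010309G21Rik (0 reads) overlaps lambda genes on the opposite strand.

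The 4 heavy J segments lie between the D segments and Ighm, and each supplies the end of the variable exon. They are shown because they followed Ighm more closely than the V segments did. The germline sequences are from the GENCODE M21 annotation of GRCm38, all on the minus strand, with the bases TGGGG in capitals, which encode the start of the conserved tryptophan-glycine motif. Ighj1 lies at chr12:113429781-113429833, the joining sequence of Ighj2 at chr12:113429468-113429515, Ighj3 at chr12:113429085-113429132 and Ighj4 at chr12:113428514-113428567. Ighd4-1, the D segment nearest to them and the D segment with most reads, lies at chr12:113430528-113430538 and is given without capitals. The gene counted as Ighj2 runs on to 113429567 and has 100 bases, so its reads and level are for this longer feature, while the other 4 were counted over the bases shown.
Ighj1: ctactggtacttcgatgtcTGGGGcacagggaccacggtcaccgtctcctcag
Ighj2: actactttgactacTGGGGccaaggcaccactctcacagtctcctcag
Ighj3: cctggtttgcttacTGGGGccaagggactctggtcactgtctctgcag
Ighj4: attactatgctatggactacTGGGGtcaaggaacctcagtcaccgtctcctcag
Ighd4-1: ctaactgggac

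Ighj1, the most 5′ of them, had 50, 52 and 50 reads in WT pre-cDC1 and 15, 4 and 29 in KO pre-cDC1. The WT pre-cDC2 libraries had 745 and 204 reads, the KO ones 342 and 255. All 4 pre-cDC2 libraries were above all pre-cDC1 libraries, and KO pre-cDC1 was below WT pre-cDC1 in every library. Together the 4 segments had 80, 88 and 119 reads in WT pre-cDC1, against 21, 11 and 40 in KO. WT pre-cDC2 had 1342 and 363 such reads, KO pre-cDC2 686 and 539. The order of the pre-cDC2 libraries was thus the reverse of that for V segments, of which WT held 942 and 10259 reads, and KO 5227 and 5351. Over the 10 libraries, Pearson's correlation of log2 RPKM for the 4 J segments was 0.90 to 0.93 with Ighm and 0.82 to 0.83 with Igkc, a description over libraries that share groups and depth. Ighd4-1 had at most 12 reads, in WT pre-cDC2 replicate 2. Kappa J segments held 14 reads or fewer per library and lambda J segments 5 or fewer. Sequenced reads are longer than a J or D segment, and whether a read that covers joined V, D and J segments was counted for 1 of them, for all or for none is not given in the sources used here.

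**Figure D2:**
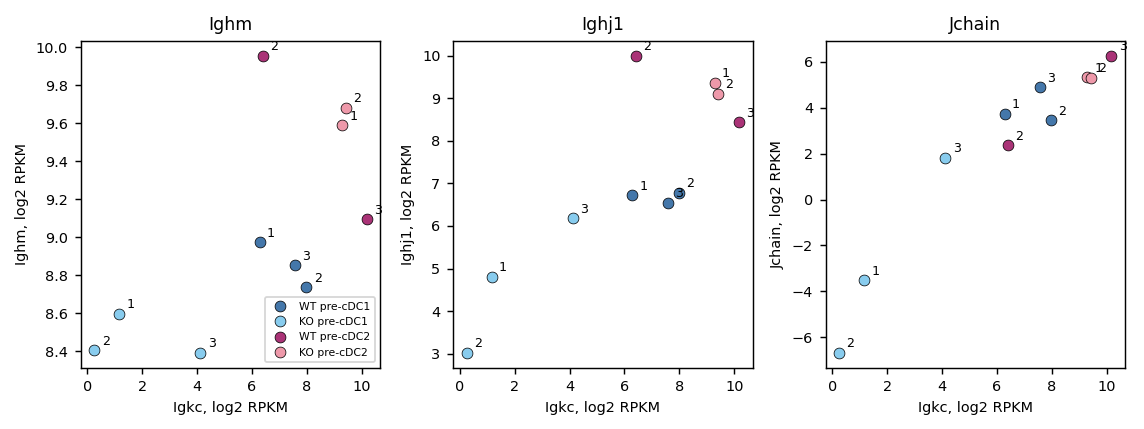
Log2 RPKM of Ighm, Ighj1 and Jchain (vertical axes) against Igkc (horizontal axis), 1 point per library, coloured by group and numbered by replicate. WT pre-cDC2 replicate 2 has the highest Ighm and Ighj1 values but an Igkc value near those of WT pre-cDC1, while Jchain lies in nearly the same order as Igkc.

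The reads of V segments were concentrated in few values. Of the 3480 values of the 348 V names in the table over 10 libraries, 3245 were 0 reads, 134 were 1 to 9 reads, 11 were 10 to 49, 18 were 50 to 99 and 72 were 100 or more. Those 72 values held 93.0% of all V reads. A count of 10 reads or more was reached by 59 segments, of which 35 reached it in 1 library only, 15 in 2, 4 in 3, 2 in 4, 2 in 5 and 1 in 6. Segments with 10 reads or more numbered 9, 5 and 7 in WT pre-cDC1, and 0, 0 and 2 in KO pre-cDC1. The WT pre-cDC2 libraries had 6 and 26, those of KO 22 and 24. The 2 KO pre-cDC2 libraries shared 8 of them, 36.4% of those in replicate 1 and 33.3% of those in replicate 2. WT pre-cDC2 replicate 3 also shared 8 with each KO pre-cDC2 library. WT pre-cDC2 replicates 2 and 3 shared 3, of 6 in replicate 2 and 26 in replicate 3. In WT pre-cDC1, replicates 1 and 2 shared 3, of 9 in replicate 1 and 5 in replicate 2. The shared part of a library thus differed widely between pairs of the same group.

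The V segments on which the results turn are shown by the last 60 germline coding bases (GENCODE M21, GRCm38), with the codon of the last cysteine in capitals. The bases after it are the germline start of CDR3, the loop that is completed by joining. Ighv1-81 (chr12:115920279-115920338, minus strand) reached 10 reads in 6 libraries, more than any other segment. Ighv7-3 (chr12:114153180-114153239, minus), Igkv12-41 (chr6:69858420-69858479, minus) and Igkv8-24 (chr6:70216858-70216917, minus) passed the test between KO and WT pre-cDC2. Igkv5-39 (chr6:69900424-69900483, minus) and Igkv1-135 (chr6:67610449-67610508, plus) passed it between cell types. Ighv5-9-1 (chr12:113736111-113736170, minus) had the most reads of any V segment in a library, and Ighv1-31 (chr12:114829264-114829323, minus) led KO pre-cDC1 replicate 3.
Ighv1-81: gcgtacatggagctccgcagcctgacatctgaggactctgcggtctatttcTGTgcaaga
Ighv7-3: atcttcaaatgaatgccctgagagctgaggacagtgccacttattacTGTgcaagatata
Ighv5-9-1: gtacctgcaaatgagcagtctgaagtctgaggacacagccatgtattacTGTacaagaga
Ighv1-31: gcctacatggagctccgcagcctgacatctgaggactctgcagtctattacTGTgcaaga
Igkv12-41: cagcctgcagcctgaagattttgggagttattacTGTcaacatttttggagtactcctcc
Igkv8-24: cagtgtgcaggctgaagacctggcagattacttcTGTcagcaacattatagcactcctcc
Igkv5-39: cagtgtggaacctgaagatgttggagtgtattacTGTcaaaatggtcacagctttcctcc
Igkv1-135: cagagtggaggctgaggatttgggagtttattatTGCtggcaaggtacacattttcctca

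V segments are near copies of each other, so the value of any of them is uncertain by the reads that fit a relative. Over the coding sequences compared (218 V segments with one), Ighv7-3 was closest to Ighv7-4, at 93.9% identity with 22 mismatches in 361 aligned bases, and Ighv7-4 had no read in any library. Ighv1-81 was closest to Ighv1-85, at 92.9%, and Igkv8-24 to Igkv8-30, at 91.0%. Igkv12-41 was closest to Igkv12-44, at 95.7%, and Igkv12-44 had 331 reads in KO pre-cDC2 replicate 1 and 0 in replicate 2, where Igkv12-41 had 417 and 231.

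Ighv1-81 had 132, 208 and 469 reads in WT pre-cDC1, and 0, 0 and 1 in KO pre-cDC1. In pre-cDC2 its reads were 0 and 337 in WT, with 208 and 225 in KO. It was the highest V segment by level in WT pre-cDC1 replicate 1, with 21.6% of that library's V reads (exact 95% interval 18.4% to 25.0%). In WT pre-cDC1 replicate 2 the highest was Igkv3-9, with 31.7% (29.4% to 34.2%) and no read in any other library. In replicate 3 it was Igkv1-110, with 38.0% (35.6% to 40.5%). In KO pre-cDC1 replicate 3, Ighv1-31 had 77 of 108 V reads and Igkv5-48 25 of them, so that 1 heavy and 1 kappa segment made up nearly all V reads of that library. KO pre-cDC1 replicates 1 and 2 had 21 and 7 V reads in all, on which no leading segment can be read.

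In WT pre-cDC2 replicate 2, Igkv1-135, Ighv1-53 and Ighv5-17 had 343, 236 and 207 of 942 V reads. In replicate 3, Ighv5-9-1 led with 1847 of 10259 reads, or 18.0% (17.3% to 18.8%). In KO pre-cDC2 replicate 1, Ighv7-3 led with 624 of 5227 reads, or 11.9% (11.1% to 12.9%). In replicate 2, Igkv4-57-1 led with 502 of 5351, or 9.38% (8.61% to 10.2%). The 3 libraries with the most V reads thus had the lowest shares on the leading segment.

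**Figure D3:**
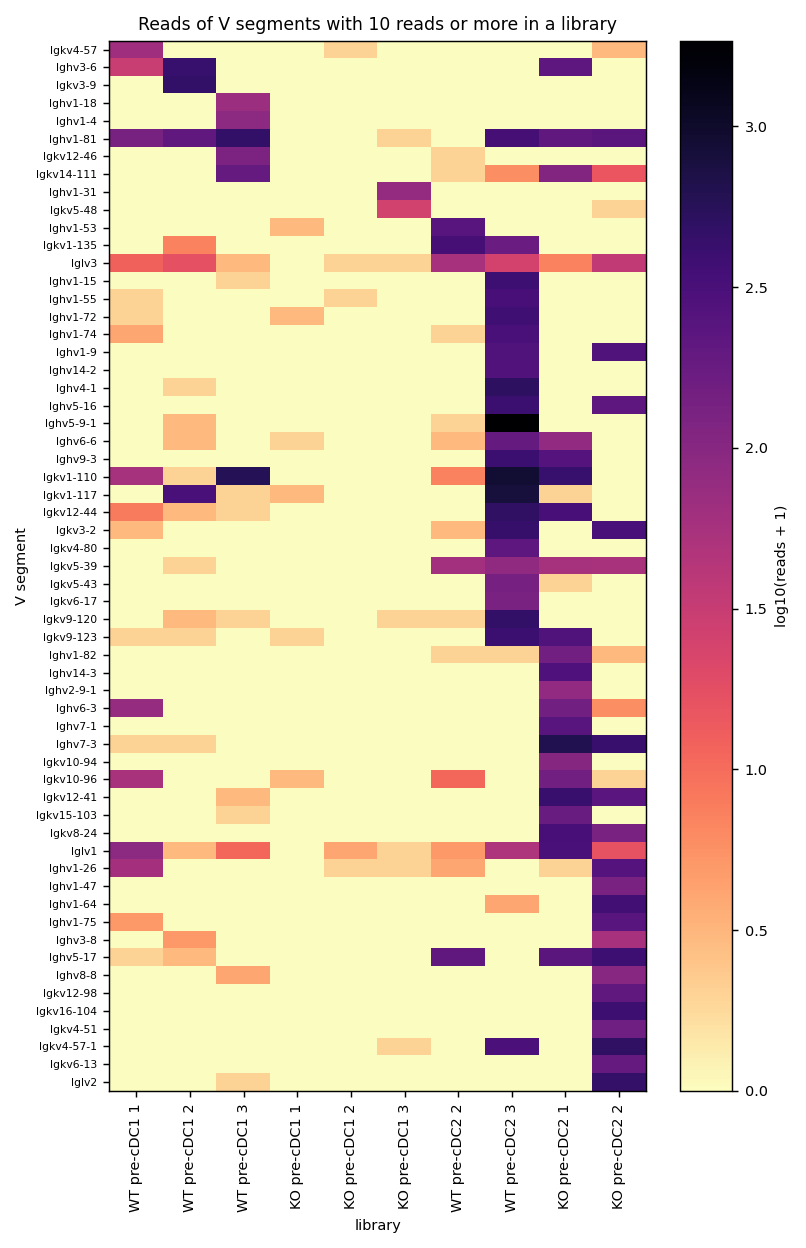
Reads of the 59 V segments with 10 reads or more in a library (rows, ordered by the library where each is highest) in the 10 libraries (columns), as log10(reads + 1). Most rows are dark in 1 column, and the KO pre-cDC1 columns are nearly empty.

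Of the 114 members 68 passed the filter for testing (log2 RPKM above 0 in at least 2 of the 10 libraries), among them the 10 D segments without a read, which leaves 58 with reads. A member passed the filter through the libraries where it is high, and levels chose it, so counts over the tested members describe them and are no support for a difference. limma was fitted to log2 RPKM of all 14787 tested genes, with p-values adjusted over all of them by Benjamini and Hochberg. Differences are on the log2 RPKM scale, in which a gene without reads keeps a small offset, so a difference against a group at 0 is no measure of size, and a lower bound is given instead, computed with 3 reads in each library of that group.

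Between KO and WT pre-cDC1, no member passed the limma threshold (adjusted p below 0.05) in either direction. Of all tested genes 0.0271% were called lower and 0% higher. Without adjustment 13 of the 58 members with reads and 1335 of the 14787 tested genes had p below 0.05, and voom on recovered reads also called 0 members. In 14 of 68 members every KO library was below every WT library, against 9.27% of all tested genes, and in 0 every KO library was above, against 7.88%. The 14 were Ighm, Igha, Igkc, Iglc2, Iglc3, Ighj1, Ighj2, Ighj3, Ighj4, Ighd4-1, Ighv1-81, Igkv1-110, Igkv12-44 and Iglv3. The smallest p-values belonged to Iglc3, Ighj3, Igkc, Ighj4 and Ighv1-81, with limma adjusted p of 0.078, 0.109, 0.145, 0.145 and 0.175. The difference was -5.43 ± 1.10 (SE) for Igkc, -2.66 ± 0.50 for Ighj3 and -2.20 ± 0.45 for Ighj4. For Iglc3, at 0 reads in KO, the bound is at least 1.18-fold lower. Igha differed by -5.75 ± 2.38 (limma adjusted p = 0.507) and Ighm by -0.39 ± 0.22 (0.654). The median over the 58 members was -1.35, or 0 when the 38 with a group at 0 reads were set to their bound, against -0.00 over all tested genes. Without WT pre-cDC2 replicate 2, or without replicate 3, 4 members were called lower, Iglc3, Ighj3, Ighj4 and Ighv1-81. These libraries are in neither group compared and enter only through the pooled spread. Of 14 T cell genes 13 and of 9 NK cell genes 9 had a negative difference in the same comparison, none called, and their part in the result was not tested.

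Between KO and WT pre-cDC2, 3 members were higher in KO and 0 lower, against 0.0541% and 0.0135% of all tested genes. Ighv7-3 had 624 and 416 reads in KO and 0 and 0 in WT, and was at least 239.9-fold higher (limma adjusted p = 0.00394). Igkv12-41 had 417 and 231 reads in KO and none in WT, and was at least 149-fold higher (limma adjusted p = 0.0162). Igkv8-24 had 330 and 127 reads in KO and none in WT, and was at least 104-fold higher (limma adjusted p = 0.00652). Each of these 3 V segments was above 0 log2 RPKM in the 2 KO pre-cDC2 libraries alone, and so entered the test only through the group in which it is high. The p-values therefore describe the values that selected the segments and are no independent support. Without KO pre-cDC2 replicate 1 their limma adjusted p was 0.0965, 0.160 and 0.115, and without replicate 2 it was 0.050, 0.0874 and 0.050. With only the 4 pre-cDC2 libraries in the fit it was 0.269, 0.269 and 0.415, and the 3 calls were lost. Igkv1-135 lay the other way, with 343 and 169 reads in WT and none in KO, but did not pass (limma adjusted p = 0.0889). The constant genes did not pass: Igkc differed by 1.07 ± 1.35 (limma adjusted p = 0.901) and Igha by 4.26 ± 2.91 (0.834), with WT replicate 2 below and WT replicate 3 above both KO libraries in each gene. Groups did not overlap in 8 members higher and 3 lower in KO, against 15.6% and 14.6% of all tested genes. All 14 T cell and all 9 NK cell genes of the lists had a positive difference, none called. So did 8 of 8 tested erythroid genes, of which Slc4a1 and Hba-a1 were called, with a summed RPKM of 5.36 to 6.42 in WT and 32.5 to 65.1 in KO pre-cDC2. The part of these cells in the result was not tested.

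In WT, 5 of 68 members were higher in pre-cDC2 than in pre-cDC1 and 0 lower, against 4.88% and 6.59% of all tested genes. The 5 were the kappa segments Igkv5-39 and Igkv1-135 and the heavy J segments Ighj2, Ighj3 and Ighj4. Igkv5-39 had 0, 1 and 0 reads in pre-cDC1 and 60 and 85 in pre-cDC2 (limma adjusted p = 0.00089). It was above 0 log2 RPKM in the 4 pre-cDC2 libraries alone, so it too entered the test through the cell type in which it is high. Igkv1-135 had 0, 6 and 0 reads in pre-cDC1 and 343 and 169 in pre-cDC2 (limma adjusted p = 0.00696). Outside WT pre-cDC2, Igkv1-135 was above 0 log2 RPKM in WT pre-cDC1 replicate 2 alone. Without the WT pre-cDC2 values it would not have been tested, so its p-value is no independent support either. Ighj2, Ighj3 and Ighj4 rose by 2.48 ± 0.59, 2.51 ± 0.56 and 2.47 ± 0.50 (limma adjusted p = 0.0253, 0.0203 and 0.0132). Without WT pre-cDC2 replicate 2, the library with most J reads, the 3 J segments differed by 1.72, 1.66 and 1.68 and were not called (limma adjusted p = 0.130, 0.0973 and 0.0590). Igkc differed by 1.01 ± 1.23 (limma adjusted p = 0.671), and its groups overlap. Every pre-cDC2 library was above every pre-cDC1 library in 8 members and below in 0, against 20.2% and 18.5% of all tested genes. In the same comparison 10 of 14 T cell genes and 1 of 9 NK cell genes were called higher and 4 of 8 erythroid genes lower, and their part in the result was not tested.

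In KO, 19 of 68 members were higher in pre-cDC2 than in pre-cDC1 and 0 lower, against 10.7% and 10.1% of all tested genes. They include the constant genes Ighm, Igkc, Iglc2 and Iglc3, all 4 heavy J segments, Ighd4-1, Igkj3, Iglj3 and the V segments Ighv7-3, Ighv1-81, Ighv5-17, Igkv12-41, Igkv8-24, Igkv5-39, Iglv1 and Iglv3. Ighm rose by 1.17 ± 0.24 (limma adjusted p = 0.00907) and Igkc by 7.51 ± 1.23 (limma adjusted p = 0.00275). Ighj1, Ighj2, Ighj3 and Ighj4 rose by 4.56 to 5.63. Of the called members, Ighv7-3, Igkv12-41, Igkv8-24 and Igkj3 were above 0 log2 RPKM in the 2 KO pre-cDC2 libraries alone. Igkv5-39, Ighv5-17 and Iglj3 were above 0 in pre-cDC2 libraries alone. All of these entered the test through the cells in which they are high, so their calls and the count are no independent support. Igkj3 and Iglj3 have 38 bases each and were called on 1 read in each KO pre-cDC2 library, which shows how little such a call rests on. The call of Ighd4-1 also rests on few reads, 3 and 5 in KO pre-cDC2 against 1, 0 and 0 in KO pre-cDC1. Igha (7.44 ± 2.66, limma adjusted p = 0.0792) and Ighg2c (at least 241.9-fold higher, limma adjusted p = 0.0557) did not pass. Groups did not overlap in 25 members higher and 0 lower in pre-cDC2, against 28.6% and 23.1% of all tested genes. The T cell list had 14 of 14 and the NK cell list 8 of 9 genes called higher in the same comparison, and their part in the result was not tested.

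The test of whether the KO difference itself varied between cell types called 1 member higher, Ighv7-3, and 0 lower, against 0.0135% and 0.00676% of all tested genes. Ighv7-3 had 1, 1 and 0 reads in WT and none in KO pre-cDC1, and in pre-cDC2 the reads given above. The segment entered the test through those 2 KO pre-cDC2 values, so the term describes the values that selected it. The difference of differences was 12.77 ± 1.29 (limma adjusted p = 0.0218), a size that depends on the offset of groups without reads. For Igkc the same term was 6.50 ± 1.74 (limma adjusted p = 0.780), so the larger pre-cDC1 value of that gene is not shown to be particular to pre-cDC1.

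**Figure D4:**
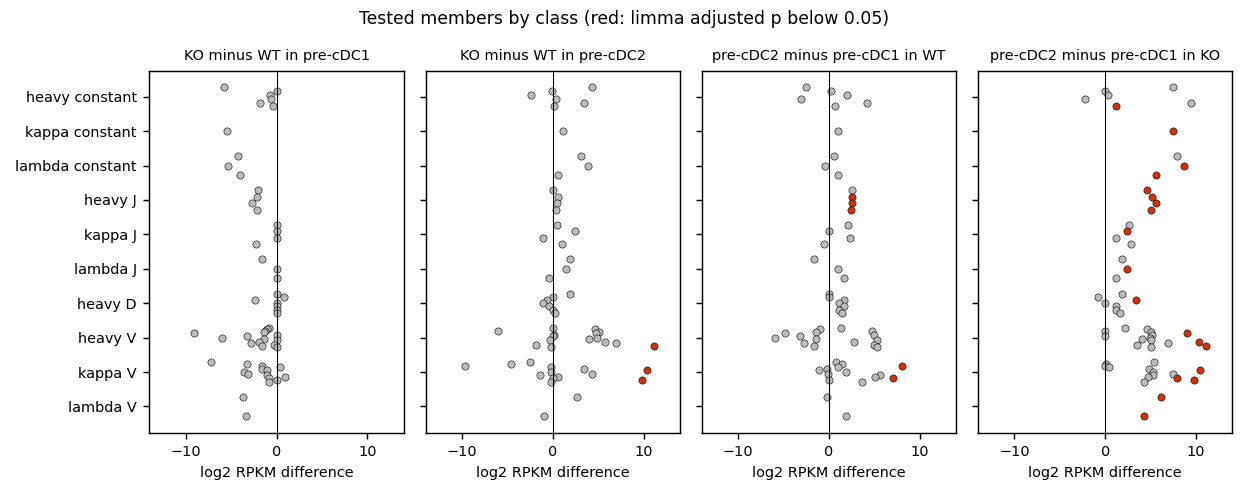
Differences in log2 RPKM of the 58 tested members with a read, by class of gene (rows) in 4 comparisons (panels); each point is 1 member, red where the limma adjusted p is below 0.05. Red points number 0 and 3 in the KO panels of pre-cDC1 and pre-cDC2, and 5 and 19 in the cell type panels of WT and KO.

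Genes that mark and serve antibody-making cells were looked at as lists. In the list of 28 B cell genes, Pax5, the B cell identity factor, had no read in 9 of the 10 libraries and 4 reads in WT pre-cDC2 replicate 2. Cd79a, a signalling chain of the B cell receptor, had 0 to 35 reads per library. Pou2af1, a coactivator of immunoglobulin promoters, had 146 reads in WT pre-cDC2 replicate 3, where Igkc was highest, 57 in KO pre-cDC2 replicate 2 and at most 8 in each of the other libraries. The summed RPKM of the list was 462 to 493 in WT and 376 to 396 in KO pre-cDC1. In pre-cDC2 it was 231 to 360 in WT and 216 to 241 in KO. Such a sum is weighted to genes of high level. Cd83, for example, was at 7.61 to 7.85 log2 RPKM in WT pre-cDC1 and 3.96 in WT pre-cDC2 replicate 3. Cxcr5 lay the other way, with 0, 0 and 19 reads in WT pre-cDC1 and 373 in WT pre-cDC2 replicate 3. Of its 20 tested genes none was called between KO and WT in either cell type, with medians of -0.53 in pre-cDC1 and -0.18 in pre-cDC2. Between cell types 3 were higher and 6 lower in WT, and 6 were higher and 6 lower in KO pre-cDC2. Some genes of the list are also used by dendritic cells. Blnk, an adaptor, and Cd72, a receptor, were higher in pre-cDC2, and Bank1, an adaptor, was lower, in both genotypes.

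Jchain, which links IgA or IgM units and is made by plasma cells, lay in nearly the order of Igkc. It had 302, 246 and 755 reads in WT pre-cDC1 and 2, 0 and 67 in KO pre-cDC1. WT pre-cDC2 had 177 and 2163 reads, KO pre-cDC2 1001 and 874. The difference between KO and WT pre-cDC1 was -6.82 ± 1.82 (limma adjusted p = 0.244). The other plasma cell genes ranged widely. Xbp1, a transcription factor of secretory cells that dendritic cells also use, had 1172 to 2840 reads per library, with its lowest value in WT pre-cDC2 replicate 3, where Igkc was highest. Prdm1 had at most 2 reads in a pre-cDC1 library and 73 to 201 in pre-cDC2. Derl3, of endoplasmic reticulum protein disposal, had 0 to 105 reads. Of the surface and marker genes, Tnfrsf17, a plasma cell survival receptor, had 1 read in all, Mzb1, an endoplasmic reticulum cochaperone, 0 to 39 reads per library, and Sdc1, a surface marker of plasma cells, 0 to 45. The summed RPKM of the 25 plasma cell and secretion genes was 1432 to 1573 in WT and 1306 to 1491 in KO pre-cDC1. In pre-cDC2 it was 908 to 1146 in WT and 885 to 949 in KO. This sum is weighted to genes of high level in every library, such as Hspa5, at 7.27 to 8.68 log2 RPKM. Of 22 tested, none was called between KO and WT, with medians of -0.12 and 0.01. In WT 1 was higher (Prdm1, the plasma cell repressor that is also used in T cells) and 6 lower in pre-cDC2, and in KO 5 were higher and 5 lower. The part of other cells in the immunoglobulin values was not tested.

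Of 16 genes for rearrangement, surrogate light chain and class switching, 13 were tested and none was called between KO and WT. Rag1, of the recombinase, had 1 read in each KO pre-cDC2 library and none elsewhere. Rag2 had 15 to 84 reads per library. Vpreb1 and Igll1, the surrogate light chain genes, were called higher in KO pre-cDC2 than in KO pre-cDC1 (limma adjusted p = 0.0305 and 0.0481). In KO pre-cDC2 Vpreb1 had 7 and 10 reads and Igll1 5 and 22. Neither had a read in KO pre-cDC1, so the log2 difference is no measure of size. Dntt, which adds bases at the joins, was lower in KO pre-cDC2 than in KO pre-cDC1 by 3.62 on the log2 scale (limma adjusted p = 0.0418). Receptors that bind immunoglobulin (8 of 11 tested) had 0 called between KO and WT. Fcer1g, the shared signalling chain of Fc receptors, was higher in pre-cDC2 by 1.16 ± 0.32 in WT and 1.77 ± 0.32 in KO (limma adjusted p = 0.0495 and 0.00476). Of 12 plasmacytoid dendritic cell genes, 8 in WT and 9 in KO were higher in pre-cDC2, and their mean was highest (5.72 log2 RPKM) in WT pre-cDC2 replicate 2, the library with the highest Ighm and heavy J levels. That relation was not tested.

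Among the 14719 tested genes that are no members, those most like Igkc over the 10 libraries by Pearson's correlation of log2 RPKM were Gm15411 (0.97), Fam49a (0.97), Lax1 (0.96), Arl5c (0.96), Jchain (0.96), Pcsk4 (0.96), Ncr1 (0.95), Ikzf3 (0.95), Oplah (0.95) and Snhg15 (0.95). Among the members the highest were Iglc3 (0.85), Igha (0.84), Iglc2 (0.84) and Ighv1-81 (0.84), and Ighm stood at 0.63. These are descriptions over libraries that fall into 4 groups and share depth.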

How the data were processed

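RNA of 10 libraries was amplified with SMARTSeq v2 and sequenced as paired reads, per the labels' protocols. Per the submitters' processing notes, the authors used STAR 2.3, featureCounts 1.5.0, R 3.3.3 and edgeR with GRCm38. For the annotation release, the strand setting and reads that fit several genes, nothing is given in the sources used here. The authors deposited log2 RPKM, 1 column per library, with a small prior count that leaves genes without reads at a value set by their length. Whole reads were recovered within 0.001 for all 52550 genes, with GENCODE M21 lengths for 49035 of them, and served for read counts, floors of 3 reads and exact 95% binomial (Clopper-Pearson) intervals. limma 3.58.1 (R 4.3.3) fitted 4 group means to log2 RPKM of the 14787 genes above 0 in at least 2 libraries, with an eBayes trend, two-sided tests and Benjamini-Hochberg adjustment. It was tested on simulated reads with the same spread for all genes and changes planted only in genes of higher mean reads. That setting does not cover segments at 0 reads in some libraries of a group and high in others. Members and gene lists were chosen with earlier results of these data known. Named were all constant genes, the 3 highest V segments of a library, called members (the 10 smallest p, or the 5 smallest where fewer than 5 passed), and the 2 to 4 genes of smallest p of a list. Others were named after their values were seen. Deviations of same-numbered replicates from their group means had correlations of -0.030 to 0.032 over the tested genes. In groups of 2 or 3 libraries such correlations cannot settle whether the numbers pair libraries. Alternatives covered filters, pseudocount, scaling, eBayes settings, voom and leaving out each library. No promoter table entry matched a member, so promoters were not searched.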

Additional observations from a re-analysis of the deposited data

Results flagged for a closer look

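For Ighv7-3, a heavy V segment, the test of whether the KO minus WT difference varied between the cell types passed its threshold: the difference of differences was 12.77 on the log2 RPKM scale (limma adjusted p = 0.0218), with reads in both KO pre-cDC2 libraries and no more than 1 read in any other library. The segment entered the test only because it was above 0 log2 RPKM in those 2 KO libraries, so the p-value rests on the values that selected it. Its adjusted p rose to between 0.0917 and 0.186 when any of WT pre-cDC1 replicates 1 and 2, the KO pre-cDC1 libraries or the KO pre-cDC2 libraries was left out.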

How the results depend on the processing

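Counts of called members were recomputed under each alternative, and none of the results changed sign. For KO against WT pre-cDC1 (0 called), 1 was called without the trend and 1 with only the groups compared, and 0 to 4 when a library was left out. For KO against WT pre-cDC2 (3 called), 5 were called with no filter, 0 with a stricter filter (above 1 in 3 or more libraries), 0 with only the groups compared, and 0 to 7 when a library was left out. For pre-cDC2 against pre-cDC1 in WT (5 called), 1 was called with no filter, 3 without the trend, 1 with only the groups compared, and 3 to 11 when a library was left out. In KO (19 called), 10 were called with no filter and 13 to 21 when a library was left out. For the interaction (1 called), 4 were called with no filter, 0 with the stricter filter, 4 with 1 RPKM added before the log2, 3 after quantile normalization, 4 without the trend, 2 with at least 10 reads in at least 2 libraries (chosen after seeing the data), and 0 to 6 when a library was left out. With the replicate number as a block, the KO count in pre-cDC2 was 0 and the interaction count 0, and no other count moved by over 1.5 times (0 in pre-cDC1, 4 between cell types in WT and 20 in KO). Whether these numbers pair the libraries is not known. When a pre-cDC2 library is left out, the fit takes the spread of the lone library left from the other groups. Dropping genes at 0 reads in all libraries, also chosen after seeing the data, gave 0, 3, 5, 20 and 1. Of the single genes under alternatives, 571 values kept their side of the threshold, 42 fell below it and 29 passed it. The cause of these changes was not tested. In the pre-cDC1 comparison 38 of the 58 tested members with reads had a group without any read, for which only bounds can be given. Whether such a transcript was absent or below detection at this depth cannot be told apart.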

Other observations

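In KO pre-cDC2, reads of Iglv1 went with those of Iglc1, and reads of Iglv2 with those of Iglc2. Iglv3 and Iglc3 lay outside these pairs, with 6 and 33 reads of Iglv3 and 10 and 11 of Iglc3 in replicates 1 and 2. KO pre-cDC2 replicate 1 had 318 reads of Iglv1 and 350 of Iglc1, with 0 of Iglv2 and 17 of Iglc2. KO pre-cDC2 replicate 2 had 452 reads of Iglv2 and 490 of Iglc2, with 15 of Iglv1 and 8 of Iglc1. Iglv1 and Iglv2 have 96.9% identity over 351 aligned bases, with 11 mismatches. The kappa segments Igkv1-110 and Igkv1-117, at 97.2% identity, were also unequal: Igkv1-110 had 599 reads in WT pre-cDC1 replicate 3 and 428 in KO pre-cDC2 replicate 1, where Igkv1-117 had 1 and 1, while in WT pre-cDC1 replicate 2 it had 1 read and Igkv1-117 had 316. In WT pre-cDC2 replicate 3 both were present, with 906 and 788 reads.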
